A study of Mus musculus with 2 samples.

Results

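The iron storage, export and uptake genes are 10 genes of the 26124 in the deposited tables: Fth1, Ftl1, Ncoa4, Slc40a1, Slc11a1, Slc11a2, Tfrc, Steap3, Slc25a37 and Ireb2. They were found by their symbols, and all 10 were present. Spleen cells bound by beads coated with anti-F4/80 antibody, which recognises a surface protein of mouse macrophages, were sequenced in 2 droplet libraries, each from 1 untreated mouse aged 12 to 16 weeks. By its label, the wild-type mouse was a non-sickling control, homozygous for Hbatm1Paz, heterozygous for Hbbtm1Tow and hemizygous for Tg(HBA-HBBs)41Paz. The mouse with sickle cell disease (SCD) was labelled homozygous for all 3 alleles. By these labels both mice lacked the mouse α-globin genes and carried the human sickle transgene, and the control was a littermate and not an unmodified mouse. Each condition had 1 mouse, so conditions were compared without a test, and differences between mice, libraries and genotypes cannot be told apart.

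Red pulp macrophages of the spleen engulf aged red blood cells, break down their heme and release the iron. Iron that is not released at once is stored in ferritin, a shell built of heavy and light chains, from which autophagy sets it free again. Ferroportin returns the iron to plasma, and erythroblasts take it up as transferrin-bound iron and carry it to the mitochondrion for heme synthesis. Iron regulatory proteins adjust this traffic by binding hairpins in messenger RNAs, the iron-responsive elements. In a 5′ untranslated region (UTR) they block translation when iron is scarce, and in a 3′ UTR they can protect the messenger RNA from decay.

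The hairpins are shown because the members that hold them are the known targets of the iron regulatory proteins. The pattern searched was a C, any 5 bases, the loop CAGTGN and any 5 bases, with at least 4 of the 5 bases on both sides of the loop pairing (G with T allowed), on the transcript strand of coding transcripts of GENCODE release 21 (build GRCm38). It was found in 5 of the 10 members. Capitals mark the 6 bases of the loop, each sequence is 29 bases long and is written 5′ to 3′, and the coordinates are those of GRCm38. 5′ UTRs of 3 members held it:
Fth1, chr19:9982732-9982760, plus strand: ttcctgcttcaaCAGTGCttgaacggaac
Ftl1, chr7:45459779-45459807, minus strand: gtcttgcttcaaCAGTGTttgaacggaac
Slc40a1, chr1:45925465-45925493, minus strand: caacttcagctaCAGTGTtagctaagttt

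3′ UTRs of 2 members held it, at 1 place in Slc11a2 and at 4 places in Tfrc:
Slc11a2, chr15:100395153-100395181, minus strand: agccatcagagcCAGTGTgtttctatggt
Tfrc, chr16:32631219-32631247, plus strand: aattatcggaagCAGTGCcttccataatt
Tfrc, chr16:32631598-32631626, plus strand: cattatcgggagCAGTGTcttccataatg
Tfrc, chr16:32631663-32631691, plus strand: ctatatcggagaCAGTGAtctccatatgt
Tfrc, chr16:32631710-32631738, plus strand: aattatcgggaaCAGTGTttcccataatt

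In Slc11a2 4 of the 5 bases paired, and at the other places all 5 paired. The pattern lay in 4 of 5 coding transcripts of Fth1, 1 of 2 of Ftl1, 1 of 4 of Slc40a1, 1 of 6 of Slc11a2 and 1 of 3 of Tfrc. Of all genes with a 5′ UTR 0.996% held the pattern (205 of 20580), and of those with a 3′ UTR 4.16% (872 of 20978). The pattern was not matched in Ncoa4, Slc11a1, Steap3, Slc25a37 or Ireb2. These matches are a description of the letters, and RNA levels measured here do not show translation. Droplet libraries of this kind count 3′ ends of messenger RNAs as unique molecular identifiers (UMIs), and transcripts of a gene with and without the hairpin were not told apart.

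The libraries held 145953464 UMIs (labelled wild-type) and 73986356 UMIs (labelled SCD), and 19418 and 12279 cells were kept, with medians of 4116 and 4571 UMIs per cell. Of the barcodes, 107 occurred in both libraries. The β-globin gene Hbb-bs was at 157.9 UMIs per 1000000 (CPM) in erythroid-like cells of the wild-type-labelled library and at 69077 CPM in those of the SCD-labelled library, and Hbb-bt at 260.9 and 21479 CPM. A mouse homozygous for Hbbtm1Tow should lack these genes, and a heterozygous mouse should have them, so the values went against the labels of both libraries. Hba-a1, which both mice should lack, was counted at 31366 and 37034 CPM, and no value here tells reads of the transgene from those of the mouse gene. The samples are called the wild-type-labelled library and the SCD-labelled library. A ratio of SCD to wild-type is a ratio of the libraries so labelled. Directions between the libraries rest on these labels.

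Cells were grouped into clusters without the iron, heme, globin and sex-linked genes, and clusters were named from marker genes. Macrophages, called RPM-like, had markers of red pulp macrophages (such as Vcam1, Spic and Cd5l) at 4.52 to 10.5 times their level in B cell-like cells. They were 4800 cells of the wild-type-labelled library and 1603 of the SCD-labelled library, and came from different clusters: of the former 1096 cells lay in a cluster led by Abcc5 and Mertk and 3666 in one led by Marco and Cd5l, whereas 1524 of the latter lay in a cluster led by Rgs1 and Adamdec1. Erythroid markers were at 0.789 times their level in B cell-like cells in the Abcc5 and Mertk cluster and at 1.55 times in the Marco and Cd5l cluster. In the Rgs1 and Adamdec1 cluster fewer than 3 erythroid markers were found in at least 10% of cells, and no ratio was taken. Each ratio is a median over the markers found in at least 10% of cells. Island macrophages, called EBI-like after erythroblastic islands, held macrophage and erythroid RNA together (3489 and 701 cells). Erythroid-like cells numbered 2972 and 299. B cell-like cells (642 and 1749), with Cd79a at 1714 and 2234 CPM, served as background. In 8 clusters over 25% of cells were scored as doublets, and all 8 stayed without a name. They were 19.4% and 22.8% of the kept cells.

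Macrophage RNA was found in B cell-like droplets, and more of it in the wild-type-labelled library. Over the 12 macrophage markers, the level in B cell-like cells was at 12.7 to 25.6% of that in RPM-like cells in the wild-type-labelled library and at 4.94 to 11.0% in the SCD-labelled library. For the 12 erythroid markers the medians were 2.03% and 0.237% of the level in erythroid-like cells. In RPM-like cells the 12 erythroid markers summed to 608 CPM and 122 CPM, and in erythroid-like cells the 12 macrophage markers summed to 7857 CPM and 3099 CPM, with none of them at 0. A level of a member near that of B cell-like cells is therefore read as background below. That background can hold RNA of B cells themselves, which was not told apart from free RNA. In the SCD-labelled library B cell-like cells held Fth1 at 35.2%, Ftl1 at 19.2% and Ncoa4 at 27.1% of the level in RPM-like cells. These shares were above the range of the macrophage markers, whereas Slc40a1 (7.29%) and Slc11a1 (7.20%) lay within it. The intervals given are 95% exact intervals and cover counting error only, not the spread between mice.

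Of the 10 members, 7 were at least 2-fold above B cell-like cells in RPM-like cells of the wild-type-labelled library: Fth1, Ftl1, Ncoa4, Slc40a1, Slc11a1, Slc11a2 and Steap3. Of all genes with at least 100 UMIs, 17.8% were this far above. In the SCD-labelled library 6 of the 9 members with at least 100 UMIs were (18.8% of all genes), and Steap3, with 61 UMIs, was at 3.67-fold (1.89 to 7.82). Tfrc was at 1.17-fold (1.02 to 1.35) and 0.718-fold (0.606 to 0.850) of B cell-like cells there, and Slc25a37 and Ireb2 were below them in each library. In erythroid-like cells 5 members were at least 2-fold above B cell-like cells in the wild-type-labelled library (16.2% of all genes) and 6 in the SCD-labelled library (13.7% of all genes). Ncoa4, Slc11a2, Tfrc, Steap3 and Slc25a37 were among them in each library, and Fth1, at 1.96-fold and 2.73-fold, lay on different sides of the limit. When macrophages were instead taken as cells with UMIs of at least 2 macrophage markers and none of the erythroid or B cell markers, the counts in macrophages were 1 and 3, and of the cells so taken 51.5% and 11.5% lay in the RPM-like clusters.

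**Figure D1:**
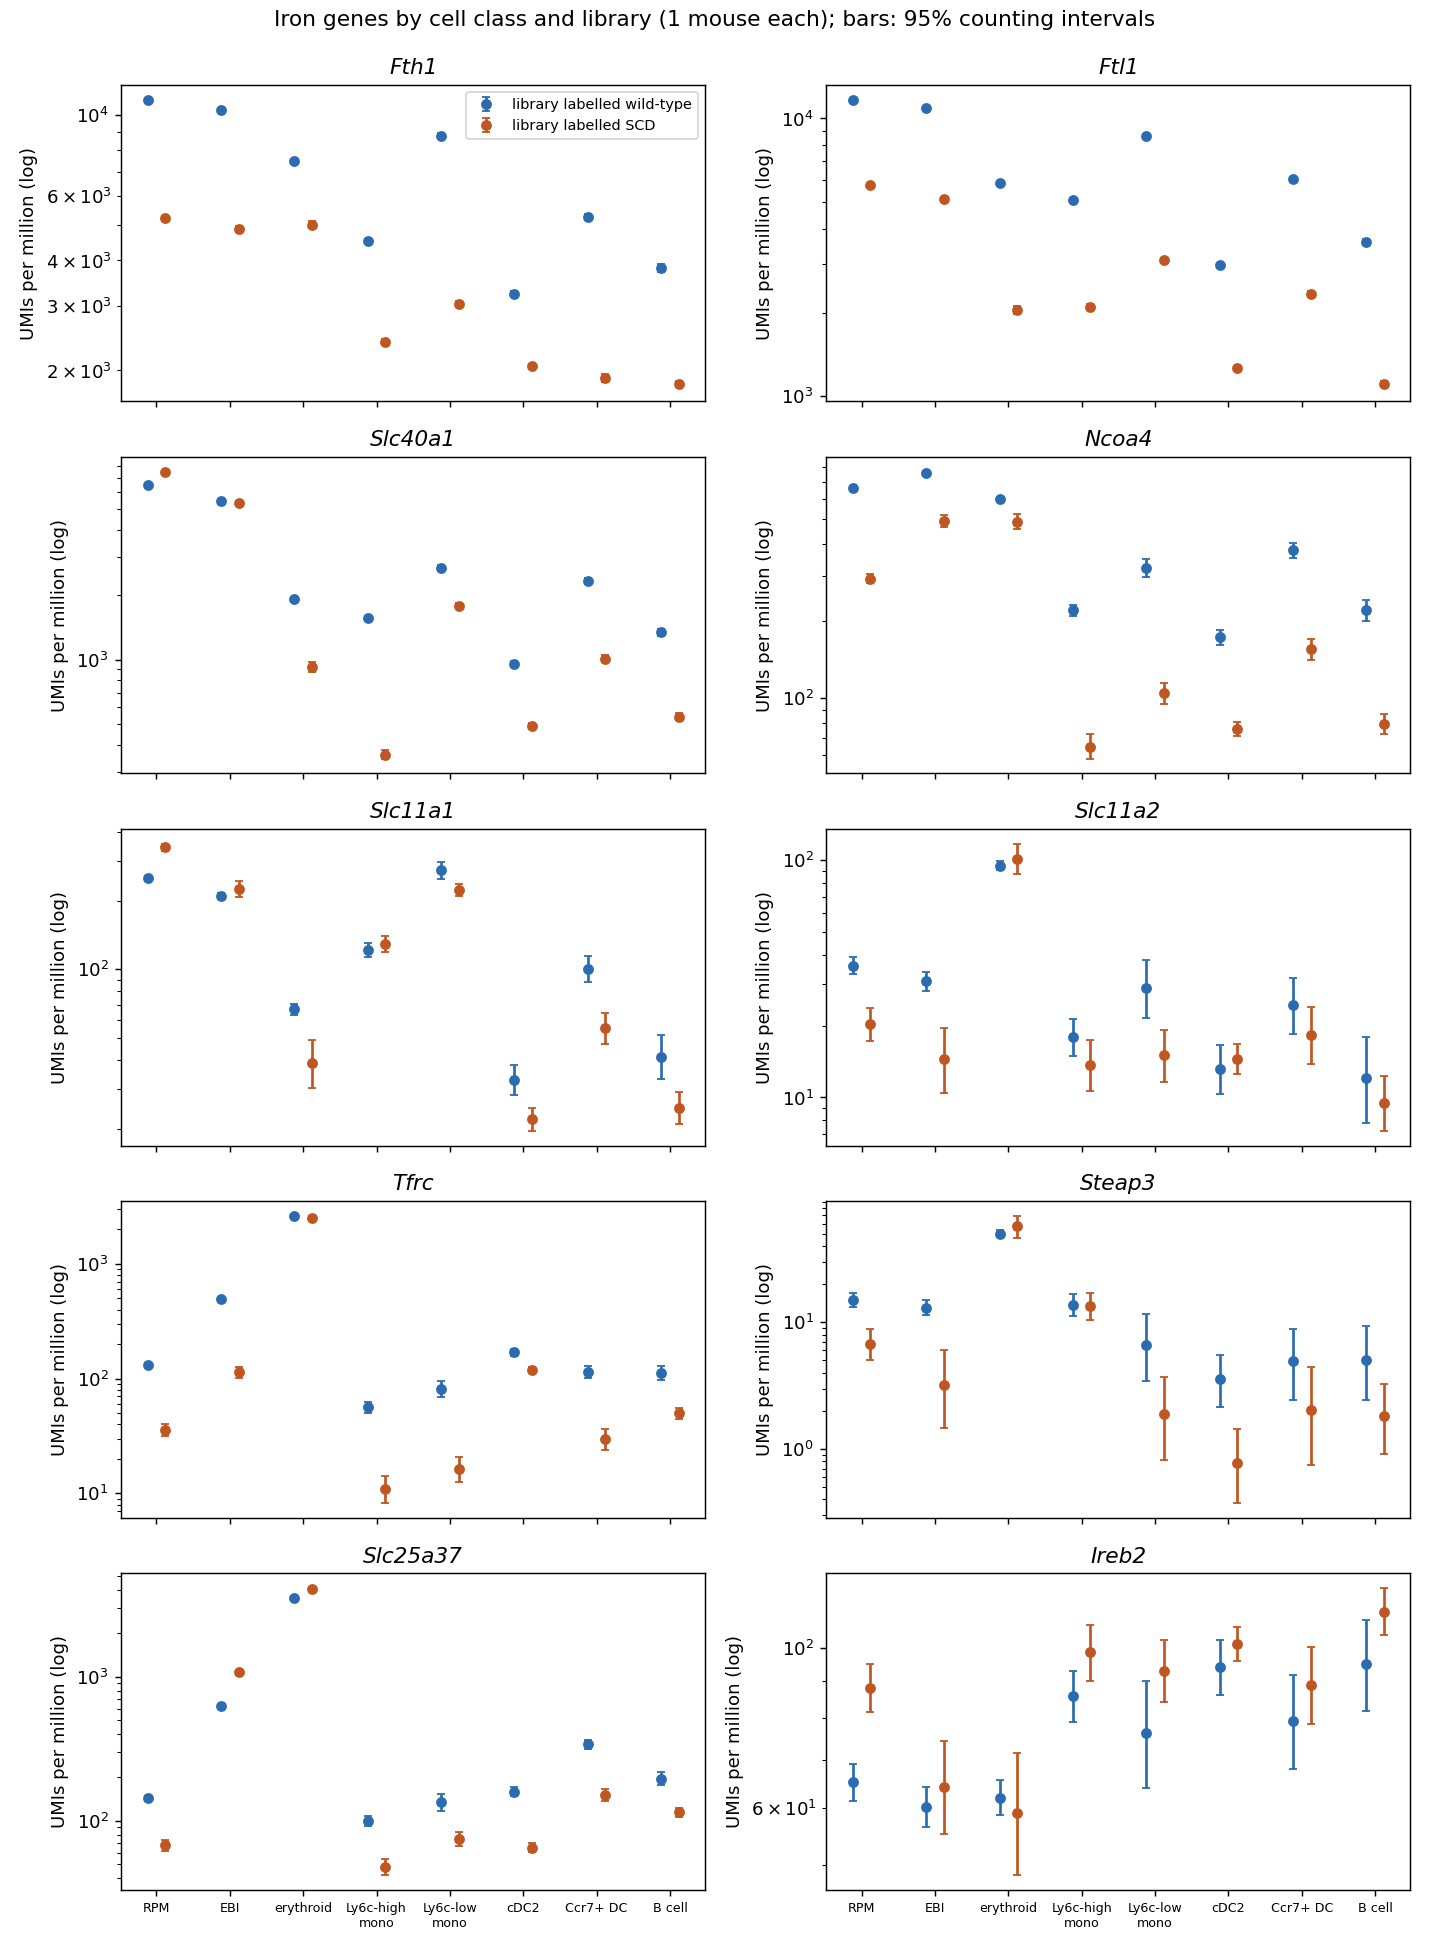
CPM (log axis) of the 10 members in 8 cell classes of the wild-type-labelled library (blue) and the SCD-labelled library (orange), 1 mouse each, with 95% counting intervals. Fth1, Ftl1 and Slc40a1 were highest in RPM-like cells, and Tfrc, Slc25a37, Slc11a2 and Steap3 in erythroid-like cells.

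Fth1 (ENSMUSG00000024661, chr19:9980598-9985098) encodes the ferritin heavy chain, which oxidises iron on its way into the shell. It was at 10991 CPM (10941 to 11040) in RPM-like cells of the wild-type-labelled library and at 5224 CPM (5172 to 5276) in those of the SCD-labelled library. EBI-like cells were at 10338 and 4881 CPM, erythroid-like cells at 7478 and 5011 CPM, and B cell-like cells at 3817 and 1837 CPM. RPM-like cells were thus 2.88-fold and 2.84-fold above B cell-like cells. Monocytes with low Ly6c reached 8783 CPM in the wild-type-labelled library and 3041 CPM in the other, and cDC2-like dendritic cells were lowest in the former, at 3248 CPM. The ratio of SCD to wild-type in RPM-like cells was 0.475 (0.470 to 0.481), and the ratio in B cell-like cells, 0.481 (0.467 to 0.496), was of the same size.

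Ftl1 (ENSMUSG00000050708, chr7:45457944-45459884) encodes the light chain, which helps the iron core form. It was at 11671 CPM (11620 to 11722) and 5761 CPM (5706 to 5816) in RPM-like cells, a ratio of 0.494 (0.488 to 0.499). B cell-like cells were at 3598 and 1105 CPM, so that RPM-like cells stood 3.24-fold above them in the wild-type-labelled library and 5.21-fold in the SCD-labelled library. Within each library RPM-like cells were highest, followed by EBI-like cells and monocytes with low Ly6c. Reads of Ftl1 can be shared with its near-identical copy Ftl1-ps1, which was counted at 111.5 CPM and 178.7 CPM in RPM-like cells and moved the other way. With both counted together RPM-like cells were at 11782 and 5939 CPM, and the ratio was 0.504 (0.499 to 0.509), an interval that spans the limit of 2-fold.

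The balance of both chains differed between classes. For each UMI of Fth1, RPM-like cells held 1.06 UMIs of Ftl1 (1.06 to 1.07) in the wild-type-labelled library and 1.10 (1.09 to 1.12) in the SCD-labelled library. Erythroid-like cells held 0.781 (0.775 to 0.787) and 0.409 (0.393 to 0.425), and B cell-like cells 0.943 and 0.602. The 2 clusters of erythroid-like cells differed: the cycling one held 0.611 and 0.330, and the one led by Xpo7 held 1.10 (1.09 to 1.11) and 0.867 (0.800 to 0.940), so that in the wild-type-labelled library the latter was above RPM-like cells. In erythroid-like and B cell-like cells the ratio was lower in the SCD-labelled library, where free macrophage RNA was lower too. In RPM-like cells it was slightly higher there. The part of free RNA in this was not tested.

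Ncoa4 (ENSMUSG00000056234, chr14:32159865-32179855) encodes the receptor that delivers ferritin to autophagy. It was at 660.3 CPM (648.2 to 672.6) in RPM-like cells of the wild-type-labelled library and at 293.4 CPM (281.2 to 306.0) in those of the SCD-labelled library, a ratio of 0.444 (0.424 to 0.465). Erythroid-like cells were at 598.3 and 489.4 CPM, 2.72-fold and 6.16-fold above B cell-like cells, and EBI-like cells were highest at 755.6 and 491.8 CPM. In the SCD-labelled library EBI-like and erythroid-like cells did not differ beyond counting error, and both were above RPM-like cells. The order of RPM-like and erythroid-like cells thus turned between the libraries.

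Slc40a1 (ENSMUSG00000025993, chr1:45908068-45926523) encodes ferroportin, the known iron exporter of mammalian cells. It was at 6492 CPM (6454 to 6530) in RPM-like cells of the wild-type-labelled library and at 7449 CPM (7387 to 7512) in those of the SCD-labelled library, a ratio of 1.15 (1.14 to 1.16), a log2 ratio of 0.20. This direction was not kept among cells taken by marker UMIs, where the log2 ratio was -1.56. Of those cells 51.5% and 11.5% lay in the RPM-like clusters, so that value compares different mixtures of cells. B cell-like cells were at 1340 and 543.0 CPM, so the level in RPM-like cells was 4.84-fold and 13.7-fold above them. In erythroid-like cells it was at 1921 and 924.2 CPM, 1.43-fold and 1.70-fold above B cell-like cells. In both libraries RPM-like cells were highest, then EBI-like cells, then monocytes with low Ly6c at 2670 and 1784 CPM, and no neighbours in the order of the 8 classes had overlapping intervals. While both ferritin genes were lower by about the same ratio, Slc40a1 was slightly higher, so that RPM-like cells held fewer UMIs of Fth1 than of Slc40a1 in the SCD-labelled library and more in the other.

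Slc40a1 kept a narrow ratio to Vcam1, a defining marker of red pulp macrophages, in every class. For 100 UMIs of Vcam1, RPM-like cells held 76.9 (76.3 to 77.5) and 90.9 (89.8 to 91.9) UMIs of Slc40a1, and B cell-like cells 79.4 (75.4 to 83.6) and 76.5 (73.1 to 80.1). Erythroid-like cells held 80.4 (79.3 to 81.5) and 87.7 (82.0 to 93.7), monocytes with high Ly6c 77.9 and 80.1, and cDC2-like cells 78.2 and 78.0. Outside macrophages, Slc40a1 thus appeared in a proportion to Vcam1 near that of macrophages, over levels from 361.2 to 2670 CPM. In the SCD-labelled library the proportion was below that of RPM-like cells, beyond counting error, in B cell-like cells, cDC2-like cells and monocytes with high Ly6c. The largest departure in the wild-type-labelled library was in monocytes with low Ly6c, at 91.2 (87.7 to 94.9).

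**Figure D2:**
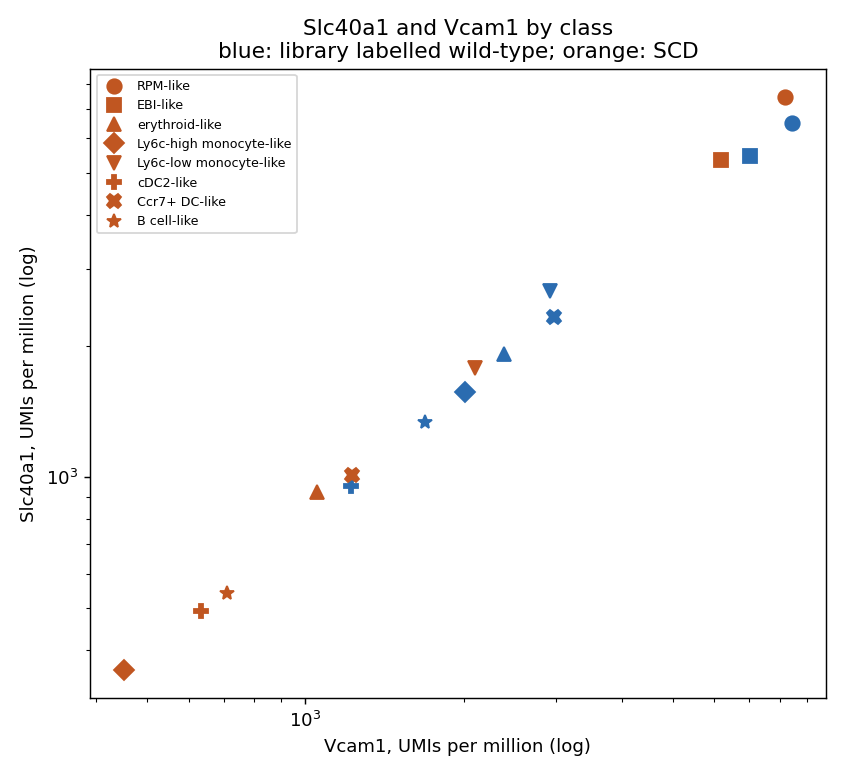
Slc40a1 against Vcam1 in 8 cell classes (symbols), both in CPM (log axes), in the wild-type-labelled library (blue) and the SCD-labelled library (orange). The points lie near a line of constant ratio, between 76.5 and 91.2 UMIs of Slc40a1 for 100 UMIs of Vcam1.

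Slc11a1 (ENSMUSG00000026177, chr1:74375195-74386062) encodes NRAMP1, a metal transporter of phagosomes and lysosomes in macrophages. It was at 250.6 CPM (243.1 to 258.2) in RPM-like cells of the wild-type-labelled library and at 343.2 CPM (329.9 to 356.7) in those of the SCD-labelled library. The ratio was 1.37 (1.30 to 1.44), or 0.45 on the log2 scale. Among cells taken by marker UMIs, a different mixture of cells in each library, the log2 ratio was -0.19. The levels in RPM-like cells were 6.05-fold and 13.9-fold above B cell-like cells (41.44 and 24.71 CPM). Monocytes with low Ly6c were at 272.1 and 223.3 CPM and did not differ from RPM-like cells beyond counting error in the wild-type-labelled library. Monocytes with high Ly6c were at 121.6 and 129.4 CPM, 2.93-fold and 5.24-fold above B cell-like cells, and cDC2-like cells lay at the background with 32.84 and 21.98 CPM. The ratio of Slc11a1 to Vcam1 differed more between classes than that of Slc40a1: RPM-like cells held 2.97 and 4.19 UMIs for 100 of Vcam1, and monocytes with high Ly6c 6.03 and 28.7.

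Slc11a2 (ENSMUSG00000023030, chr15:100387898-100425072) encodes DMT1, which carries iron out of the endosome after transferrin uptake. It was highest in erythroid-like cells of both libraries, at 95.12 CPM (90.89 to 99.49) and 101.8 CPM (87.52 to 117.8), 7.84-fold and 10.7-fold above B cell-like cells. RPM-like cells held 36.01 and 20.36 CPM, from 619 and 151 UMIs, 2.97-fold (1.98 to 4.67) and 2.14-fold (1.57 to 2.95) above B cell-like cells. The ratio of SCD to wild-type was 0.565 (0.470 to 0.677) in RPM-like cells and 1.07 (0.914 to 1.25) in erythroid-like cells. Below erythroid-like cells and RPM-like cells the classes ran from 9.518 to 30.85 CPM, and each class overlapped its neighbour in the order within counting error.

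Tfrc (ENSMUSG00000022797, chr16:32608920-32632794) encodes transferrin receptor 1, through which erythroblasts take up iron. It was at 2611 CPM (2589 to 2634) in erythroid-like cells of the wild-type-labelled library and at 2527 CPM (2453 to 2602) in those of the SCD-labelled library, 23.3-fold and 50.8-fold above B cell-like cells. The ratio of SCD to wild-type was 0.968 (0.938 to 0.998). In RPM-like cells it was at 131.7 and 35.73 CPM, where B cell-like cells were at 112.2 and 49.76 CPM, so that its ratio of 0.271 (0.238 to 0.308) was taken over levels close to or below background. The cDC2-like cells, at 169.8 and 119.1 CPM, were 1.51-fold and 2.39-fold above B cell-like cells. Monocytes with high Ly6c were lowest, at 56.11 and 10.92 CPM.

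Steap3 (ENSMUSG00000026389, chr1:120190757-120272705) encodes the reductase that turns ferric into ferrous iron in the endosome of erythroblasts. It was rare, at 50.21 CPM (47.15 to 53.41) and 57.38 CPM (46.78 to 69.65) in erythroid-like cells, from 1005 and 102 UMIs. B cell-like cells held 10 and 11 UMIs, so the folds of 9.93 (5.38 to 20.8) and 31.2 (16.7 to 64.5) are known within wide bounds. Monocytes with high Ly6c, at 13.77 and 13.55 CPM, matched RPM-like cells (15.13 CPM) in the wild-type-labelled library within counting error and were above them (6.742 CPM) in the SCD-labelled library.

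Slc25a37 (ENSMUSG00000034248, chr14:69241848-69285112) encodes mitoferrin-1, the importer of iron into the mitochondria of erythroid cells. It was at 3477 CPM (3451 to 3503) in erythroid-like cells of the wild-type-labelled library and at 4029 CPM (3937 to 4124) in those of the SCD-labelled library, 17.7-fold and 35.3-fold above B cell-like cells and 1.16-fold (1.13 to 1.19) higher in the SCD-labelled library. EBI-like cells followed at 622.5 and 1067 CPM. RPM-like cells, at 143.6 and 67.42 CPM, were below B cell-like cells, at 196.1 and 114.2 CPM.

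Ireb2 (ENSMUSG00000032293, chr9:54863789-54912530) encodes iron regulatory protein 2, which binds the hairpins shown above. It had the narrowest range of the members, from 60.16 to 95.02 CPM over the 8 classes of the wild-type-labelled library and from 59.06 to 112.5 CPM in the SCD-labelled library. B cell-like cells were highest in each but overlapped cDC2-like cells within counting error. RPM-like cells were at 65.10 and 88.05 CPM, a ratio of 1.35 (1.23 to 1.49), and erythroid-like cells at 62.00 and 59.06 CPM, a ratio of 0.953 (0.773 to 1.16).

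Between the libraries, 6 of the 10 members were past 2-fold in RPM-like cells, all lower in the SCD-labelled library: Fth1, Ftl1, Ncoa4, Tfrc, Steap3 and Slc25a37. Of all 10011 genes compared 13.5% were past 2-fold, 915 of them higher and 441 lower in the SCD-labelled library, with a median log2 ratio of 0.19 against -1.04 for the members. Of the other members Slc11a2 was lower, and Slc40a1, Slc11a1 and Ireb2 were higher by less than 2-fold. Slc40a1 and Slc11a1 were not higher among cells taken by marker UMIs, which were a different mixture of cells in each library. Members were lower in B cell-like cells too, where free RNA and RNA of B cells themselves were not told apart. In B cell-like cells 5 of the 8 members with at least 100 UMIs were past 2-fold, all lower in the SCD-labelled library (Fth1, Ftl1, Slc40a1, Ncoa4 and Tfrc), where 4.19% of all genes were past 2-fold. With the level of B cell-like cells subtracted in each library, the ratios in RPM-like cells were 0.472 for Fth1, 0.577 for Ftl1, 0.486 for Ncoa4, 0.487 for Steap3, 0.454 for Slc11a2, 1.34 for Slc40a1 and 1.52 for Slc11a1. Tfrc, Slc25a37 and Ireb2 had no level above B cell-like cells left in 1 or both libraries.

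**Figure D3:**
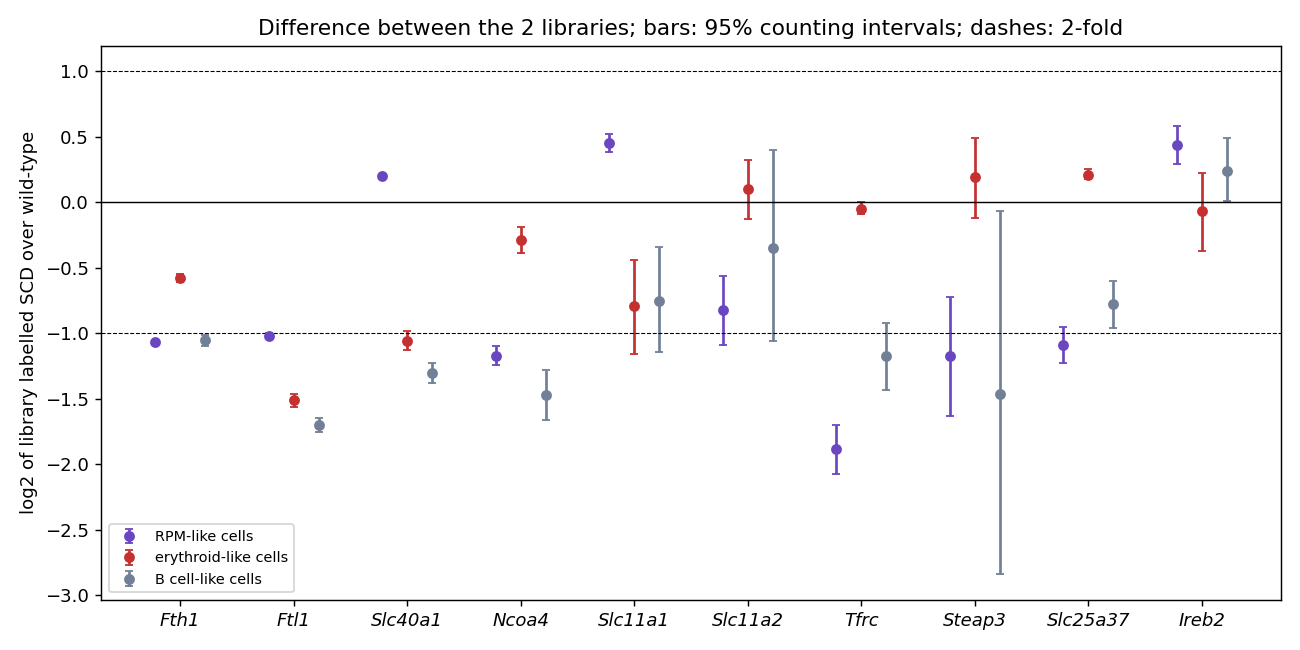
Log2 ratio of the SCD-labelled library to the wild-type-labelled library for the 10 members in RPM-like (purple), erythroid-like (red) and B cell-like (grey) cells, with 95% counting intervals. Dashed lines mark 2-fold, and Fth1 is at -1.07 in RPM-like and -1.05 in B cell-like cells.

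The clusters behind the RPM-like class differed in the members. In the wild-type-labelled library, Fth1 was at 9936 CPM in the Abcc5 and Mertk cluster and at 12130 CPM in the Marco and Cd5l cluster, Ftl1 at 10582 and 12851 CPM, and Slc40a1 at 6943 and 6026 CPM. In the SCD-labelled library, the Rgs1 and Adamdec1 cluster held Fth1 at 5203 CPM, Ftl1 at 5743 CPM and Slc40a1 at 7501 CPM. The 71 cells of the SCD-labelled library that lay in the Marco and Cd5l cluster held Fth1 at 6660 CPM, Ftl1 at 6760 CPM, Ncoa4 at 510.8 CPM and Slc40a1 at 3916 CPM. Within this cluster both ferritin genes and Slc40a1 were lower in the SCD-labelled library, whereas Slc40a1 was higher there over the class as a whole. The cells of this cluster also differed between the libraries in Vcam1, at 7813 CPM (wild-type-labelled) and 4507 CPM (SCD-labelled). Mki67 was at 98.75 and 340.5 CPM. Between cells of the class with at least 1000 UMIs, Slc40a1 ran from 32.4 (10th percentile) to 91.3 (90th percentile) UMIs per 10000 in the wild-type-labelled library and from 37.3 to 103 in the SCD-labelled library, and Fth1 from 62.7 to 168 and from 24.9 to 76.9. The central ranges (25th to 75th percentile) were 82.5 to 137 and 35.9 to 61.6 for Fth1, and 46.2 to 75.7 and 53.4 to 88.1 for Slc40a1. These ranges describe cells of 1 mouse for each library, at median depths of 2559 and 4447 UMIs, and not a spread between mice.

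In erythroid-like cells 2 members were past 2-fold between the libraries, Ftl1 at 0.351 (0.339 to 0.363) and Slc40a1 at 0.481 (0.458 to 0.506), both lower in the SCD-labelled library. Of all 9292 genes compared 11.9% were past 2-fold, 76 of them higher and 1032 lower in the SCD-labelled library, with a median log2 ratio of -0.20 against -0.18 for the members. The ratios of Ftl1 and Slc40a1 in B cell-like cells were 0.307 and 0.405. With the level of B cell-like cells subtracted, Ftl1 was at 0.421 and Slc40a1 at 0.657. Over the class as a whole, genes of transferrin uptake and mitochondrial import were close between the libraries, at 0.968 for Tfrc, 1.07 for Slc11a2, 1.14 (0.923 to 1.40) for Steap3 and 1.16 for Slc25a37.

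Among erythroid-like cells the members separated both clusters of the class. One, with Mki67 among its leading genes, held cycling cells (1666 and 160), and the other was led by Xpo7 and Tmcc2 (1306 and 139 cells). Steap3 was at 68.77 and 77.41 CPM in the cycling cluster, and at 9.422 CPM (59 UMIs) and 0 UMIs in the Xpo7-led cluster. Slc11a2 was at 123.4 and 132.8 CPM against 32.90 and 13.04 CPM, and Tfrc at 3053 and 2810 CPM against 1642 and 1715 CPM. Each of these endosomal uptake genes was thus lower in the Xpo7-led cluster of both libraries. Ncoa4 ran the other way, from 384.4 and 292.9 CPM in the cycling cluster to 1068 and 1052 CPM. Slc25a37 was at 3614 and 3790 CPM in the cycling cluster and at 3175 and 4715 CPM in the Xpo7-led cluster. It was thus lower in the Xpo7-led cluster of the wild-type-labelled library and higher in that of the other. In the Xpo7-led cluster its ratio of SCD to wild-type was 1.49 (1.42 to 1.55). Fth1 was at 7097 and 8316 CPM in the wild-type-labelled library, and at 5767 and 2846 CPM in the SCD-labelled library, so that its direction differed between the libraries. The Xpo7-led cluster also held more macrophage RNA, with Vcam1 at 4713 and 1663 CPM against 1331 and 841.6 CPM in the cycling cluster, and the part of that RNA in the values of Fth1, Ftl1 and Slc40a1 was not tested. In the cycling cluster alone, Ftl1 was the only member past 2-fold between the libraries, at 0.439 (0.421 to 0.457).

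**Figure D4:**
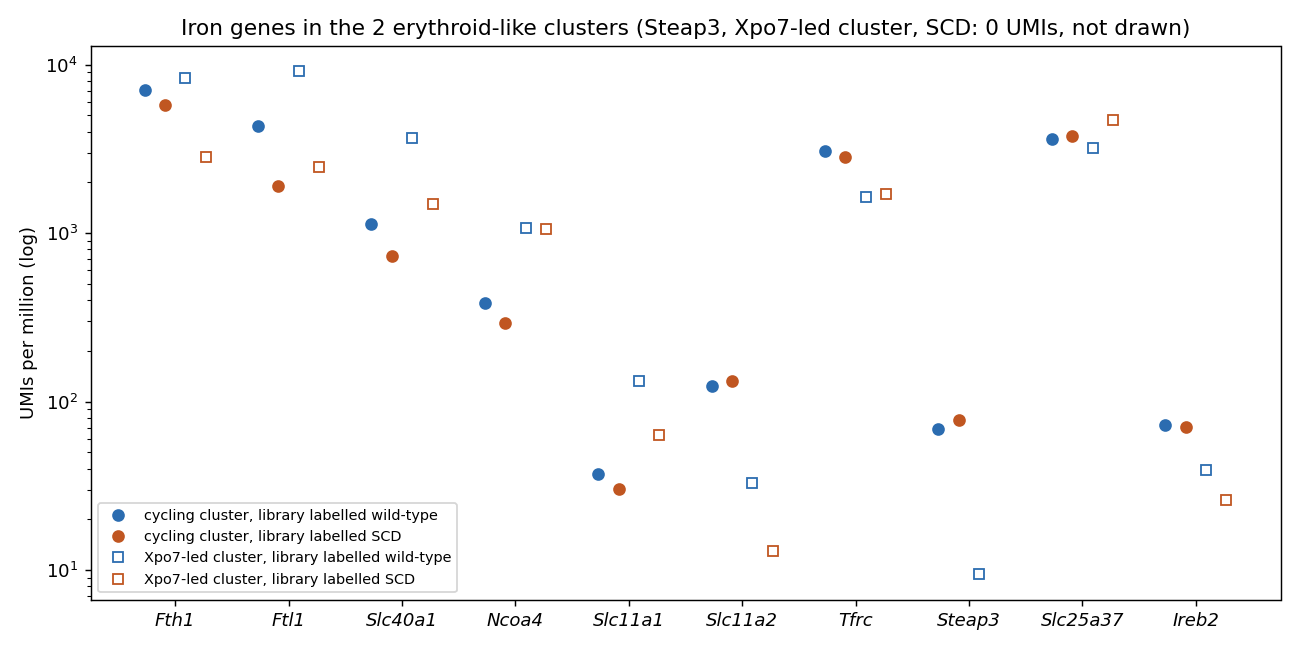
CPM (log axis) of the 10 members in the cycling (filled circles) and Xpo7-led (open squares) erythroid-like clusters of the wild-type-labelled library (blue) and the SCD-labelled library (orange). Steap3, Slc11a2 and Tfrc are lower and Ncoa4 is higher in the Xpo7-led cluster of both libraries, and Steap3 at 0 UMIs is not drawn.

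EBI-like cells held Slc40a1 together with Tfrc and Slc25a37. Slc11a2 (30.85 and 14.55 CPM) and Steap3 (13.05 and 3.193 CPM), also highest in erythroid-like cells, were not above RPM-like cells there. Slc40a1 was at 5456 and 5332 CPM, near RPM-like cells, Tfrc at 495.7 and 113.9 CPM, and Slc25a37 at 622.5 and 1067 CPM. Their cells lay in different clusters in each library: 828, 1077 and 1575 cells of the wild-type-labelled library in 3 clusters, and 641 of the 701 cells of the other in a further cluster that held 9 wild-type-labelled cells. Between the libraries 5 members were past 2-fold, all lower in the SCD-labelled library (Fth1, Ftl1, Slc11a2, Tfrc and Steap3), where 12.2% of all genes were past 2-fold either way. Relative to the wild-type-labelled library, Tfrc was at 0.230 (0.205 to 0.257) and Slc25a37 at 1.71 (1.65 to 1.79) in the SCD-labelled library. Clusters within the wild-type-labelled library differed too: Tfrc ranged from 253.3 to 928.5 CPM and Slc25a37 from 259.4 to 1367 CPM over 3 clusters.

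Shares of cells with a UMI were taken after each cell was thinned to 1000 UMIs. Slc40a1 was found in 99.2% (98.9 to 99.5%) and 99.0% (98.3 to 99.4%) of RPM-like cells, against 54.2% and 31.1% of B cell-like cells. Before thinning, the median depths were 2559 and 4447 UMIs in RPM-like cells and 2509 and 2908 in B cell-like cells, and 695 and 142 RPM-like cells with fewer UMIs were left out (5 and 18 B cell-like cells). Without thinning, Slc40a1 was found in 99.4% and 98.5% of RPM-like cells and 73.2% and 58.4% of B cell-like cells. After thinning, as for the further shares given here, Ncoa4 was found in 50.7% and 24.6% of RPM-like cells and in 14.6% and 7.57% of B cell-like cells. Slc11a1 was found in 18.7% and 25.6% of RPM-like cells, and in 2.20% and 2.08% of B cell-like cells. Tfrc was found in 84.8% (83.5 to 86.1%) and 82.9% (78.1 to 87.0%) of erythroid-like cells, and in 13.8% and 3.29% of RPM-like cells against 10.5% and 4.56% of B cell-like cells. Slc25a37 was found in 86.8% and 93.3% of erythroid-like cells, and Steap3 in 3.15% and 3.02%.

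Other genes of iron metabolism were described from 8 lists by role, 58 genes in all, of which 57 were in the tables. With at least 100 UMIs over both libraries, 35 were measured in RPM-like cells, and 1 was past 2-fold higher and 4 past 2-fold lower in the SCD-labelled library. The median log2 ratio was -0.04 with genes at 0 UMIs set at their bound, against 0.19 over all genes. Of all genes 13.5% were past 2-fold, near the share of the listed genes. The higher gene was Slc22a17, a receptor of lipocalin 2, at 4.13 and 14.8 CPM. The lower genes included the mitochondrial transporter Abcb10 (17.2 and 8.49 CPM), which was below B cell-like cells, the signalling gene Bmp2 (26.1 and 6.61 CPM), and Lcn2, which encodes lipocalin 2. Lcn2 had no UMI in the SCD-labelled library and was at 6.57 CPM in the other, at least 16.3-fold lower when 3 counts over the class are allowed, and B cell-like cells of the wild-type-labelled library held it at 5.56 CPM. None of the measured genes of the IRP system (4), the cytosolic iron chaperones (4), the endosomal and lysosomal release (3), the heme-responsive regulators (2) or the oxidases of export (1) was past 2-fold.

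In RPM-like cells, 5 of these genes were at least 4-fold above B cell-like cells in the wild-type-labelled library and 7 in the SCD-labelled library, with 5 in both. The share of all genes this far above was not taken. At least 2-fold above were 9 of the 35 measured genes in each library, against 17.8% and 18.8% of all genes. Trf, which encodes transferrin, was at 1424 and 1423 CPM, 4.11-fold and 10.1-fold above. Hfe, which acts in iron sensing, was at 225 and 255 CPM, 4.19-fold and 10.6-fold above, and the divalent metal importer Slc39a8 at 37.6 and 20.1 CPM, 8.26-fold and 6.33-fold above. Cp, which encodes the ferroxidase ceruloplasmin, was at 12.3 and 14.4 CPM, and Bmpr2, a receptor of bone morphogenetic proteins, at 94.8 and 108 CPM, 3.23-fold and 7.26-fold above.

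In erythroid-like cells 33 of the listed genes were measured, none was past 2-fold higher and 4 were past 2-fold lower in the SCD-labelled library: Trf (451 and 198 CPM), Hfe (63.5 and 28.7 CPM), Lcn2 and Bmp2. These 4 became 0 at a clustering resolution of 2 and with the cycling cluster alone, and 2 with clustering on all genes. The median log2 ratio was -0.31 with genes at 0 set at their bound, against -0.20 over all genes. Of all genes 11.9% were past 2-fold, near the share of the listed genes. Trf and Hfe were at 1.19-fold to 1.40-fold of B cell-like cells there. Lcn2 and Bmp2 had no UMI in the SCD-labelled library and were at 5.25 and 5.75 CPM in the other, at least 3.11-fold and 3.40-fold lower. Of the 12 measured genes of mitochondrial import and iron-sulfur clusters none was past 2-fold. Those far above B cell-like cells included Glrx5 (1237 and 1414 CPM, 12.4-fold and 20.8-fold), Abcb10, a partner of mitoferrin-1 (741 and 815 CPM, 26.2-fold and 46.5-fold), Slc25a39 (459 and 527 CPM) and Isca1 (131 and 223 CPM). Tfr2, the second transferrin receptor, was at 40.7 and 28.1 CPM, Slc39a8 at 48.1 and 28.1 CPM, and Erfe, the erythroblast hormone that lowers hepcidin, at 16.0 and 12.9 CPM, with no UMI of Erfe in B cell-like cells of the SCD-labelled library.

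Genes with the most similar pattern were sought over 19 groups of class and library among 10901 genes, with Pearson's r of log2(CPM + 1). The groups share libraries and free RNA, so these values are descriptions. Slc40a1 was most like Vcam1 (0.997), Mrc1 (0.995) and Galnt3 (0.995), and Ftl1 most like Ctsb (0.980), Clec4n (0.967) and Hmox1 (0.961). Fth1 was most like Cltc (0.960), Slc48a1 (0.955) and Cyb5a (0.950), and Slc11a1 like Cd302 (0.952), Rxra (0.944) and Lrp1 (0.939). Genes most like Slc25a37 included Aldh1a1 (0.967) and Tfdp2 (0.966), and Tfrc was most like Rhag (0.948), Oip5 (0.945) and Samd11 (0.937). The closest genes were Ncapg2 (0.933), Arhgap19 (0.932) and Itsn1 (0.924) for Ncoa4, and Lrrc39 (0.918), Nipa1 (0.913) and Akip1 (0.908) for Slc11a2. For Steap3 they were Mgst3 (0.864), Txnrd2 (0.862) and Gm44237 (0.861), and for Ireb2 Rpl7l1 (0.912), Mrpl24 (0.910) and Zfp758 (0.909). Among the members, Fth1 and Ftl1 were at r = 0.92 and Tfrc and Slc25a37 at 0.89, and Ireb2 ran against all 9 others, from -0.46 (Slc11a1) to -0.87 (Ncoa4).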

How the data were processed

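Per the labels, spleen cells were enriched with anti-F4/80 beads and sequenced as 10x Genomics 3′ libraries. The authors aligned the reads and deposited unnormalised counts of UMIs for every gene in every barcode. The submitters' processing notes name Cell Ranger 4.0.0 and GRCm38.p6, and the file headers name release 3.1.0.

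Cells were kept, by the limits of the study's methods, if they had between 500 and 5000 genes, less than 15% of UMIs from mitochondrial genes and less than 30% from ribosomal-protein genes. For clustering, counts were scaled with scran 1.30.0 (R 4.3.3), and cells of both libraries were clustered together in scanpy 1.11.5 (2000 variable genes, 30 components, 15 neighbours, Leiden resolution 1). Members, listed iron and heme genes, globin genes and sex-linked genes were left out of the variable genes. Clusters were named from markers, where the median ratio to the B cell-like cluster was at least 3 for macrophage markers and at least 4 for erythroid markers. Other classes needed at least 3 markers past 2-fold in at least 10% of cells, and a cluster whose 10 leading genes held as many markers of another class stayed unnamed. These limits were set after clusters had been seen. Scrublet was run on each library for doublets, which were left in, except clusters with over 25% of them. Where its threshold marked no cell (wild-type-labelled library), the highest-scoring 10% were taken.

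UMIs were summed per class and library and scaled to 1000000 (CPM). Intervals are exact Poisson (levels), exact conditional (ratios) and exact binomial (shares). The ratio step was run on simulated Poisson counts for RPM-like cells, with 200 genes changed by known folds. Those counts follow the model of the intervals and hold no spread between cells or mice, so the run checks the calculation alone. Past 2-fold means a ratio of at least 2 or at most 0.5, over genes with at least 100 UMIs. The genes named were the members, listed iron genes past 2-fold between the libraries or at least 4-fold above B cell-like cells, the 3 genes most like each member, markers and globins. Outside this rule, Ftl1-ps1, Mki67 and genes leading a cluster were chosen after their values were seen. The members and lists were chosen with earlier results of these data known. Some genes that this rule names are not reported here.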

Additional observations from a re-analysis of the deposited data

Results flagged for a closer look

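Slc40a1, Slc11a1 and Slc25a37 differed in direction between RPM-like and erythroid-like cells, with both intervals off a ratio of 1. The log2 ratio of SCD to wild-type for Slc40a1 was 0.20 in RPM-like cells and -1.06 in erythroid-like cells, a difference of 1.26. For Slc11a1 it was 0.45 and -0.79, a difference of 1.24. Among cells taken by marker UMIs, of which 51.5% and 11.5% lay in the RPM-like clusters, the values were -1.56 for Slc40a1 and -0.19 for Slc11a1. For Slc25a37 the log2 ratio was -1.09 in RPM-like cells, where its level was below that of B cell-like cells, and 0.21 in erythroid-like cells, a difference of -1.30. In erythroid-like cells Slc40a1 was near background, at 1.43-fold and 1.70-fold of B cell-like cells, and so was Slc11a1, at 1.61-fold and 1.57-fold. In B cell-like cells their ratios of SCD to wild-type were 0.405 and 0.596. In the cycling erythroid-like cluster alone the ratio of Slc11a1 was 0.814 (0.575 to 1.12). With 1 mouse per condition none of these differences was tested.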

How the results depend on the processing

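Over the alternatives, 686 log2 values were recomputed, of which 474 stayed within the counting interval of the reported value, and 212 moved. None of those past 2-fold changed sign, and 23 of those under 2-fold did. Among these, the log2 ratio of SCD to wild-type for Slc40a1 went from 0.20 in RPM-like cells to -1.56 in cells taken by marker UMIs. For Slc11a1 it went from 0.45 to -0.19. The cells taken by marker UMIs were a different mixture of cells in each library. At resolution 2 the level in erythroid-like over B cell-like cells of the wild-type-labelled library went from 0.52 to -0.12 for Slc40a1 and from 0.69 to -0.11 for Slc11a1. Of 381 values past 2-fold, 360 stayed past it. The 2 members past 2-fold between the libraries in erythroid-like cells became 1 with cells of at least 200 genes kept, at resolution 2, with clustering on all genes, with totals without hemoglobin, mitochondrial and ribosomal-protein genes, with every cell of equal weight and with the B cell level subtracted. The count was also 1 with doublet-rich clusters kept and with the cycling cluster alone, both chosen after the data were seen, and 3 with doublets left out. Members above B cell-like cells in erythroid-like cells, 5 and 6, ranged from 4 to 7 (wild-type-labelled library) and from 6 to 9 (SCD-labelled library). The 7 members above B cell-like cells in macrophages (in the SCD-labelled library with Steap3 counted) became 1 (wild-type-labelled library) and 3 (SCD-labelled library) with classes from marker UMIs in each cell. The other iron genes past 2-fold in RPM-like cells, 5, became 3 with doublets left out, at resolution 2, with clustering on all genes, with marker UMIs and with doublet-rich clusters kept. In erythroid-like cells, 4 such genes became 0 at resolution 2, 2 with clustering on all genes and 0 with the cycling cluster alone. The cause of these changes was not tested. The count of members past 2-fold in RPM-like cells, 6, ranged from 4 (B cell level subtracted) to 7 (marker UMIs), and the members were not the same. With the B cell level subtracted they were Fth1, Ncoa4, Steap3 and Slc11a2. With marker UMIs Slc40a1 was past 2-fold lower, at a log2 ratio of -1.56. Clustering each library on its own gave no erythroid-like cells in the SCD-labelled library, and marker UMIs gave 22 and 13, too few for a value. No paired analysis was possible because each condition had 1 library and no result came from a test. Steap3, with 10 and 11 UMIs in B cell-like cells, was limited most by depth.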
